A study of Mus musculus with 117 samples.

Results

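The chromatin of 9 genes of glucose metabolism was described in liver hepatocytes from 9 inbred mouse strains. The genes were taken from a list: Pck1, G6pc, Fbp1, Pcx, Pklr, Slc2a2, Ppargc1a, Tat and Gys2. They were 9 of the 20665 autosomal protein-coding genes tested. Each gene was read over its annotated span with 2 kb added on each side, which gave 4780 of the 12313718 autosomal bins of 200 bp. The list names genes of the pathway and sets no threshold on a measured value, but it was drawn up with earlier results of these data known.

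Chromatin immunoprecipitation sequencing of 4 histone marks (H3K4me1, H3K4me3, H3K27ac and H3K27me3) was carried out on cells labelled as hepatocytes, from females 12 weeks old. Each strain had 3 mice, with a library for each mark from each mouse, and 1 input library (chromatin with no antibody step). The laboratory strains were A/J, 129S1/SvImJ, C57BL/6J, DBA/2J, NOD/ShiLtJ and NZO/HlLtJ, and the wild-derived strains were CAST/EiJ, PWK/PhJ and WSB/EiJ. No mouse is labelled with a treatment or an engineered allele, and feeding state and blood glucose are not given in the sources used here. NOD/ShiLtJ is used as a model of autoimmune diabetes, and NZO/HlLtJ of obesity with diabetes.

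The measurement was the authors' segmentation of the genome, in which every stretch carries the number of 1 of 14 chromatin states. A strain has 1 segmentation that joins its libraries, so each strain gives 1 value and no error between mice of a strain can be given. The reads behind a segmentation are unknown. The marks that make up each state are not given in the sources used here, and the state numbers serve only as names. State 14 is the most widespread, and the bins outside it made up 21.4% (DBA/2J) to 25.2% (WSB/EiJ) of a strain's autosomal bins. State 3 covered 0.364% to 0.466% of autosomal bins but 39.5% ± 1.24 of the bins with a listed gene start (SD over 9 strains) and 0.960% ± 0.114 of bins 10 kb to one side of them. State 1 covered 2.28% to 2.82% of autosomal bins, and state 2 covered 1.93% to 2.69%. Errors below are SDs over the 9 strains, and all shares are percentages of a gene's bins.

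The liver keeps blood glucose up between meals by making glucose from lactate, amino acids and glycerol and by breaking down glycogen. Pyruvate carboxylase (Pcx), phosphoenolpyruvate carboxykinase (Pck1), fructose bisphosphatase (Fbp1) and glucose-6-phosphatase (G6pc) carry out the steps of gluconeogenesis that glycolysis cannot run backwards. Glucagon, through cAMP, and glucocorticoids raise the transcription of several of these genes, and insulin lowers it. After a meal the flow turns round: glucose enters through the transporter Slc2a2, liver glycogen synthase (Gys2) stores it, and liver pyruvate kinase (Pklr) ends glycolysis.

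The glucose genes other than Ppargc1a lay above the median gene in their share outside state 14 and in state 1. The bins of Pck1, G6pc, Fbp1, Slc2a2 and Tat were all outside state 14 in every strain. Pcx had 97.7% of its bins outside state 14 in NOD/ShiLtJ, 99.5% in 129S1/SvImJ and 100% in the other strains. Pklr had 88.3% ± 12.3, Gys2 49.4% ± 6.09 and Ppargc1a 16.4% ± 2.05. The median of the 9 genes was 100%, and that of all 20665 genes was 36%. No bin of the genes other than Ppargc1a was in states 5, 7, 10, 11, 12 or 13 in any strain. The median share of state 13 over all genes was 0% too, and how many of all genes lack these states was not counted.

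By the mean over strains, state 1 was the leading state of most of these genes. Its mean share was 58.3% ± 6.65 in Slc2a2, 57.5% ± 3.8 in Tat, 54.5% ± 14.9 in G6pc and 51.9% ± 15.6 in Pck1. Fbp1 had 45.5% ± 2.61, Pcx 39.2% ± 5.32, Pklr 30.8% ± 4.44, Gys2 12.1% ± 1.5 and Ppargc1a 2.37% ± 0.419. The median of the 9 was 45.5%, beside 2.87% over all genes.

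Each gene's share was compared with the share of the same state over all autosomal bins of the same strain, by an exact sign-flip permutation test, two-sided, with the strain as unit (n = 9) and Benjamini-Hochberg adjustment over the 20665 genes. This test asks only whether a gene lies on the same side of the autosomes in nearly every strain, and its smallest p is 0.0039. Many genes are called by it: 56.9% of all genes were called higher outside state 14, 47.1% higher in state 1, 47.5% higher and 44.2% lower in state 3, and 70.9% lower in state 13. Of the glucose genes, 8 were called higher outside state 14, 8 higher in state 1, 8 higher in state 3 and 9 lower in state 13. In state 13 the call was fixed in advance for 8 of these genes, as for any gene with no bin in that state. Strains have common ancestors, so they are not independent units. The shares also come from cell populations, so a difference in each cell and a difference in the make-up of the cells cannot be told apart.

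Ppargc1a was the exception in each comparison but that of state 13. It had fewer bins outside state 14 than the autosomes, by a difference of -6.99 percentage points (adjusted p = 0.00581, exact permutation test, lower in 9 of 9 strains), a direction in which 25.9% of all genes were called. Its state 3 share was lower in 8 of 9 strains (adjusted p = 0.00886), and its state 1 share was higher in 3 strains and lower in 6 (adjusted p = 0.258, same test). Against the mean of all genes in place of the autosomes, the differences were -25.8 points outside state 14 and -6.76 points in state 1, the latter then called lower (adjusted p = 0.00464, same test). With the X chromosome included, the difference outside state 14 was -11.3 points. The span of Ppargc1a holds 3329 bins, against 52 to 577 for the other genes, and the part of span length in these shares was not tested.

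**Figure D1:**
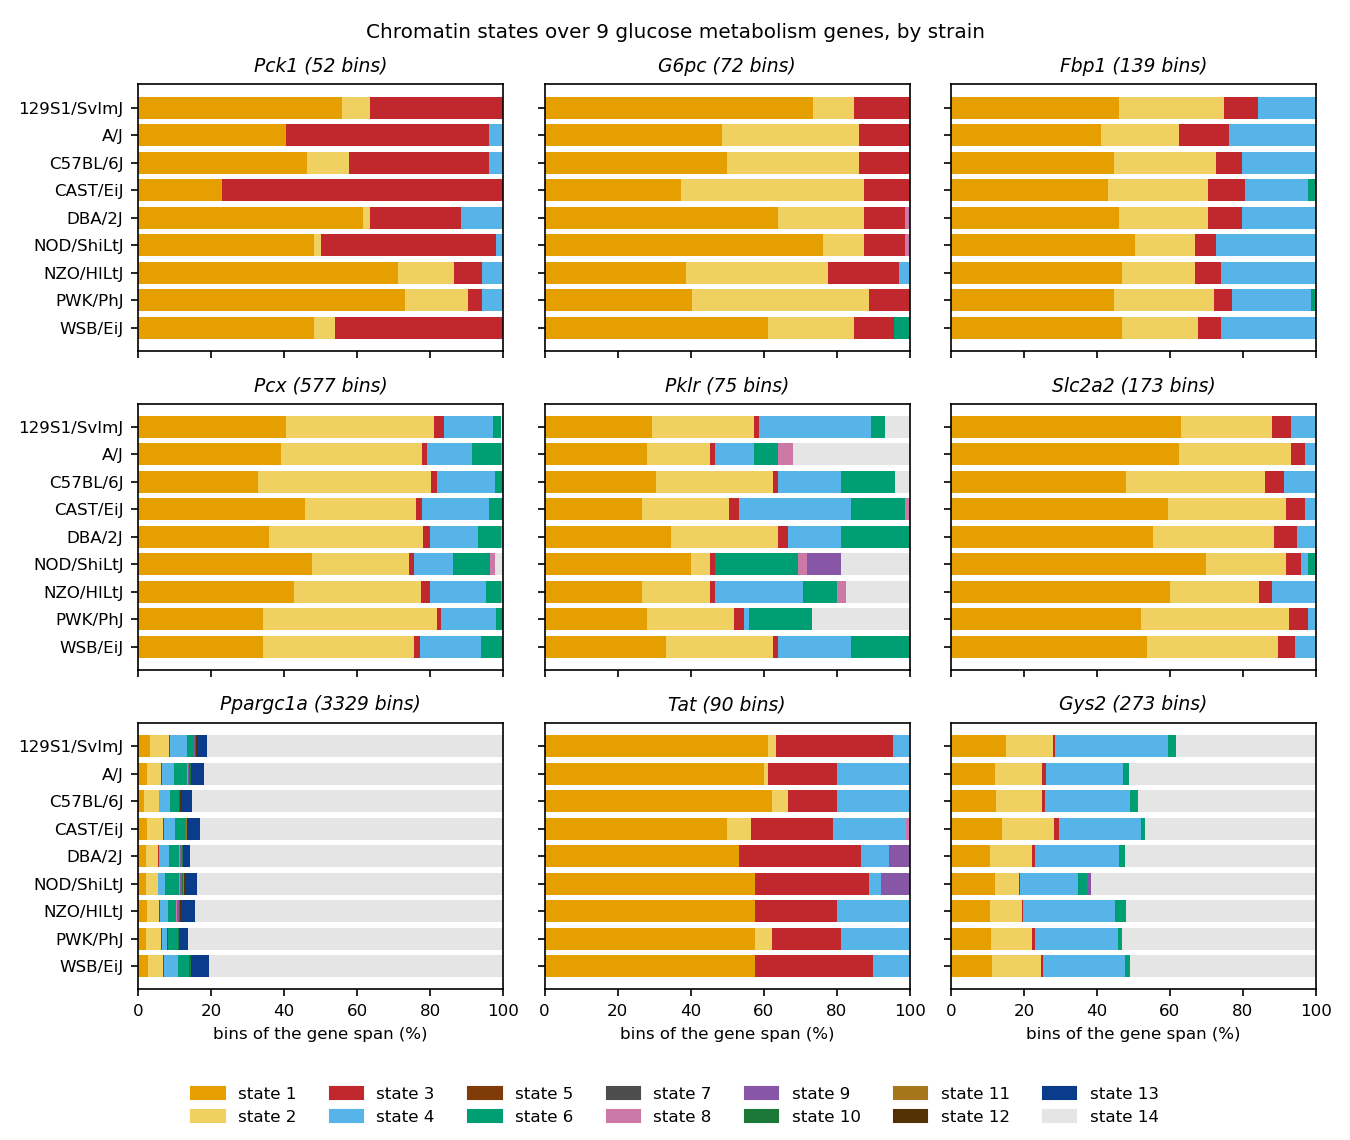
Share of each gene's 200-bp bins in each of the 14 states (horizontal axis, percent) in the 9 strains (rows), with the number of bins per gene. Pck1 shows the widest exchange of state 1 for state 3, with 2 of 52 bins in state 3 in PWK/PhJ and 40 in CAST/EiJ, while Ppargc1a lies mostly in state 14.

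Pcx, on chr19:4510472-4621752, encodes the enzyme that turns pyruvate into oxaloacetate, the entry to gluconeogenesis. It is the longest of the genes that were nearly all outside state 14. State 1 took between 32.9% (C57BL/6J) and 47.5% (NOD/ShiLtJ) of its 577 bins, with a median of 39.2%. State 2 had its lowest share, 26.7%, in NOD/ShiLtJ and its highest, 47.7%, in PWK/PhJ. Exchanges of states 1 and 2 made up 51.1% of the differences between strain pairs along the gene.

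The gene has 2 listed starts, and only the outer one lay in state 3. At position 4510472 a state 3 block of 1000 bp was found in 7 strains, and of 800 bp in NOD/ShiLtJ and WSB/EiJ, with the same first base in all 9. The inner start at 4594319 was in state 1 in 9 of 9 strains, with no state 3 within 1 kb. The 250 bases before the outer start are shown because they differ in composition from those of the other genes. They are RefSeq reference sequence (build GRCm38.p6, chr19:4510222-4510471, plus strand, 5′ to 3′), and capitals mark the CCAAT box, searched as CCAAT on both strands.
Pcx: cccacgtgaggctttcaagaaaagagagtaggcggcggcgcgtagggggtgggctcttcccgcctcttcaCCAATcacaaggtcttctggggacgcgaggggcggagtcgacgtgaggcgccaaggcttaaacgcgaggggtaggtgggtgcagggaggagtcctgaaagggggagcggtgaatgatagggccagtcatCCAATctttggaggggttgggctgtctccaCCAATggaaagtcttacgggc
This window holds 16 CpG dinucleotides, and the other windows of the glucose genes hold 2 to 5. The median over 21045 such windows of protein-coding genes is 10. The 3 CCAAT boxes begin 180, 51 and 21 bases before the start, and 35.6% of all windows hold at least 1. The bins that hold them were in state 3 in all 9 strains. State 3 covered 1.71% ± 0.571 of the gene, higher than the autosomes (adjusted p = 0.00456, exact permutation test, 9 of 9 strains). It was lower by a difference of -0.859 points when the mean of all genes was the reference.

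An uninterrupted stretch outside state 14 ran through the Pcx start and reached well past the gene in most strains. It measured 139.8 kb in CAST/EiJ, with a median of 136.6 kb, and ended beyond the upper end of the gene in 7 strains. In 129S1/SvImJ it measured 33.2 kb, because 3 bins within the gene were in state 14. In NOD/ShiLtJ it measured 121.6 kb, and 13 bins of the gene were in state 14. The gene Lrfn4 lies inside the upper part of Pcx and Rce1 begins within 2 kb of its end, so states there cannot be assigned to Pcx alone.

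Pck1, on chr2:173153073-173159274, encodes the cytosolic enzyme that makes phosphoenolpyruvate from oxaloacetate, a main control point of gluconeogenesis. It was the gene in which state 3 varied most between strains. The number of its 52 bins in state 3 was 19 in 129S1/SvImJ, 29 in A/J, 20 in C57BL/6J, 40 in CAST/EiJ, 13 in DBA/2J, 25 in NOD/ShiLtJ, 4 in NZO/HlLtJ, 2 in PWK/PhJ and 24 in WSB/EiJ. CAST/EiJ was thus highest, and PWK/PhJ and NZO/HlLtJ were below the rest. As a share this was 37.6% ± 23.1, with a range from 3.85% to 76.9%, and it ranked at the percentile 99.9 of all genes. State 1 filled most of what state 3 left: its share ran from 23.1% in CAST/EiJ to 73.1% in PWK/PhJ. Exchanges of states 1 and 3 made up 64.6% of the differences between strain pairs.

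The start of Pck1 was in state 3 in all 9 strains, and what varied was how far the block ran into the gene. The block at the start was 3200 bp long in 129S1/SvImJ, A/J, NOD/ShiLtJ and WSB/EiJ, 3600 bp in CAST/EiJ, 2800 bp in C57BL/6J and 2200 bp in DBA/2J. It was 800 bp in NZO/HlLtJ and 400 bp in PWK/PhJ. In the 16 bins of the part of the gene nearer the end, state 3 took 14 bins in CAST/EiJ, 6 in A/J, 2 each in C57BL/6J, NOD/ShiLtJ and WSB/EiJ and 0 in the other strains. The 2 kb past the end had state 3 in 7 of 9 strains, with 9 of 10 bins in CAST/EiJ and 0 in NZO/HlLtJ and PWK/PhJ. The stretch outside state 14 around the start was long in every strain, from 68.6 kb in PWK/PhJ to 86.4 kb in CAST/EiJ.

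The 250 bases before the Pck1 start carry the site through which cAMP is known to act on this gene, and they lie where all strains were in state 3. They are shown from RefSeq (GRCm38.p6, chr2:173152823-173153072, plus strand, 5′ to 3′), with capitals for the cAMP response element, searched as TTACGTCA on both strands.
Pck1: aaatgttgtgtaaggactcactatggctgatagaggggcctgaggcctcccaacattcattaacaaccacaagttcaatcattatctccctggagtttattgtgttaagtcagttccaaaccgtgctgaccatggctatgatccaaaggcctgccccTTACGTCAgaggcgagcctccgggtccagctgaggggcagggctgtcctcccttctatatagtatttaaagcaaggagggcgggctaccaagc
The match begins 93 bases before the start. It was found in 0.475% of the 21045 windows (100 windows), and its shorter core CGTCA, which it contains, in 20.4%. The bin that holds it, from 173152801 to 173153000, was in state 3 in 9 of 9 strains, from PWK/PhJ with its short block to CAST/EiJ with its long one. The sequence is that of the reference and not of each strain.

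**Figure D2:**
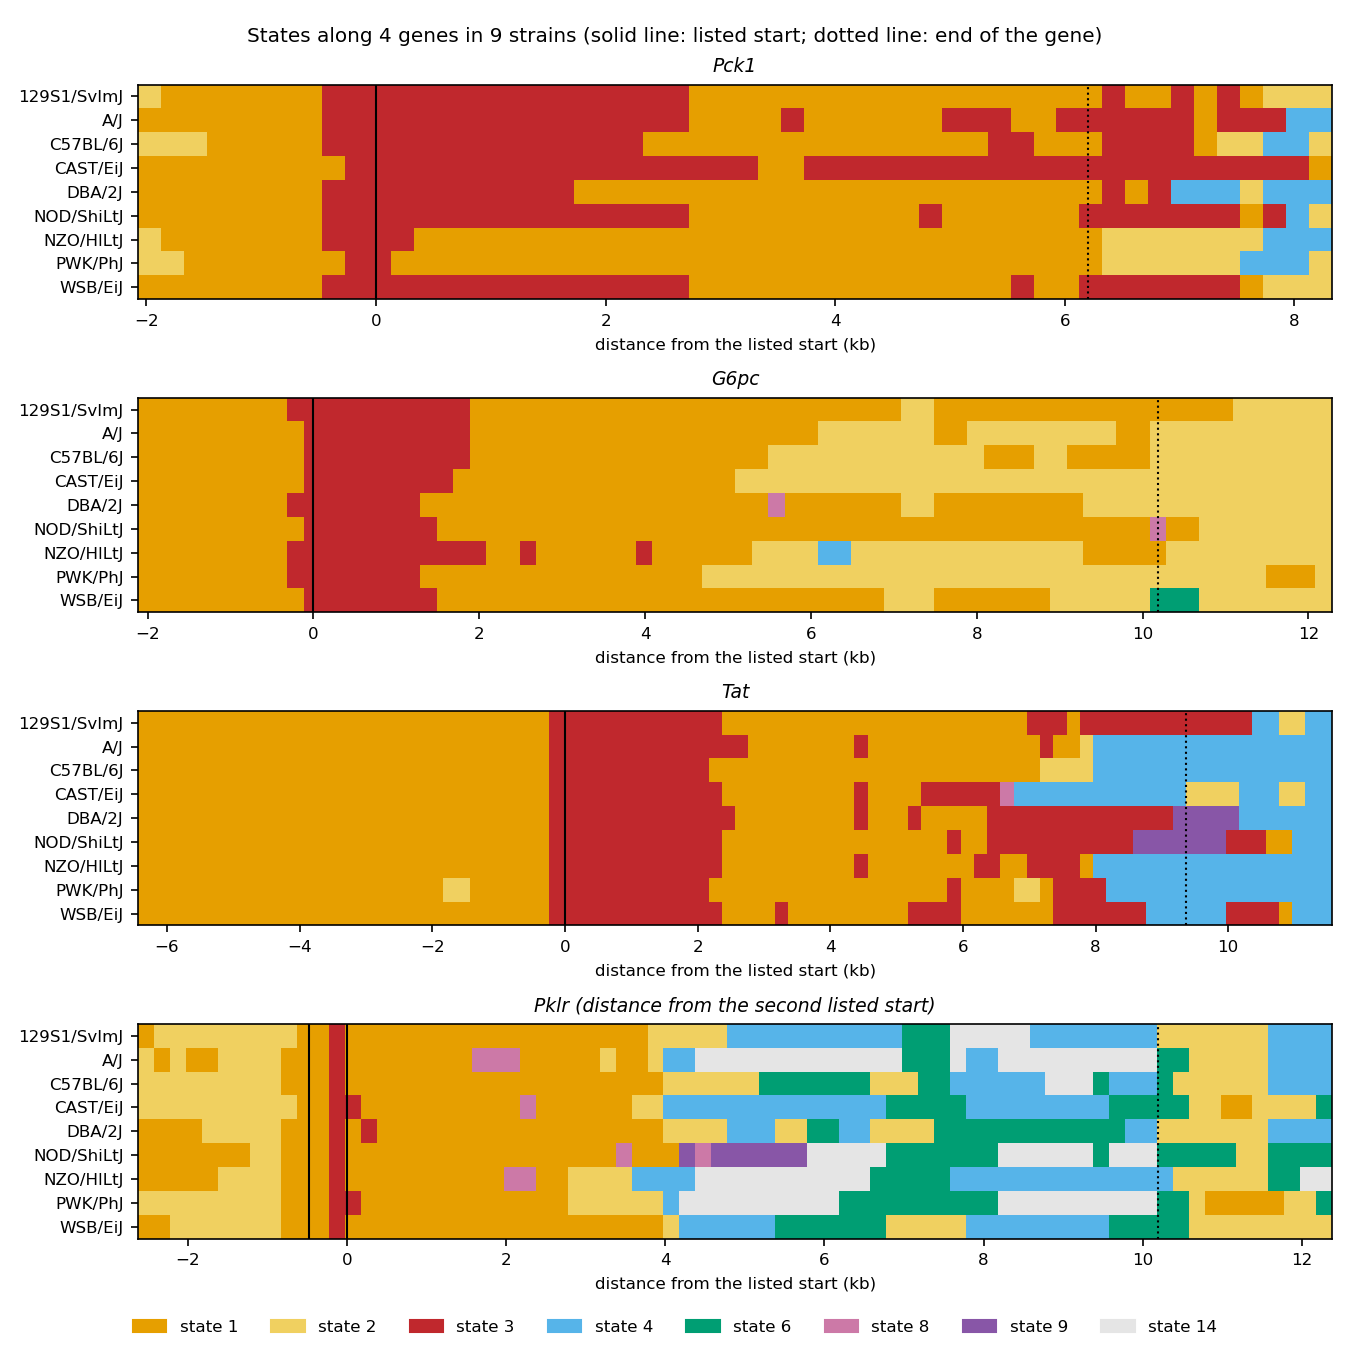
States of consecutive 200-bp bins along Pck1, G6pc, Tat and Pklr (horizontal axis, distance from the listed start in kb) in the 9 strains (rows), with listed starts as solid lines and gene ends as dotted lines. State 3 sits at the start of Pck1, G6pc and Tat and at or just before the downstream start of Pklr in all strains, while the length of its block in Pck1 (400 to 3600 bp), states 1 and 2 near the end of G6pc, and state 14 near the end of Pklr vary by strain.

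Fbp1, on chr13:62864753-62888298, encodes the enzyme that removes a phosphate from fructose bisphosphate. It was among the steadier genes. State 1 took between 41.0% (A/J) and 50.4% (NOD/ShiLtJ) of its 139 bins, with a median of 46.0%. State 3 covered 8.23% ± 2.67, from 5.04% in PWK/PhJ to 13.7% in A/J. Its listed start, at 62888282 on the minus strand, was in state 3 in 8 strains and in state 1 in WSB/EiJ. The state 3 block there was 3600 bp long in A/J, 2600 bp in DBA/2J and 1400 bp in NOD/ShiLtJ and PWK/PhJ. A/J was longest.

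The states of Fbp1 were laid out by position. In the part nearer the start, state 1 took 42 to 51 of 60 bins and state 4 took none. In the part nearer the end, state 2 took 19 to 35 of 59 bins and state 4 took 17 to 30. The exchange of states 2 and 4 made up 57% of the differences between strain pairs. The muscle-type gene Fbp2 lies 6352 bp away on the same chromosome, and its share outside state 14 was 20.7%. The stretch outside state 14 that began at Fbp1 ended inside Fbp2 in all 9 strains, with its boundary between 62854601 and 62857601. Its length varied on the far side, from 39.6 kb in NZO/HlLtJ to 66.0 kb in CAST/EiJ.

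G6pc, on chr11:101367716-101377903, encodes the enzyme that releases free glucose, the last step shared by gluconeogenesis and glycogen breakdown. Its start was in state 3 in all strains, and its strain differences lay in the part nearer the end. State 1 took 73.6% of its 72 bins in 129S1/SvImJ, 48.6% in A/J, 50.0% in C57BL/6J, 37.5% in CAST/EiJ, 63.9% in DBA/2J, 76.4% in NOD/ShiLtJ, 38.9% in NZO/HlLtJ, 40.3% in PWK/PhJ and 61.1% in WSB/EiJ. State 2 ran the other way, at 11.1% in 129S1/SvImJ and NOD/ShiLtJ, a median of 36.1%, and 50.0% in CAST/EiJ. Exchanges of states 1 and 2 made up 78.0% of the differences between strain pairs.

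The exchange was placed within the gene. Of the 26 bins nearer the end, state 2 held all 26 in CAST/EiJ and PWK/PhJ, 18 in NZO/HlLtJ, 17 in A/J, 16 in C57BL/6J, 9 in WSB/EiJ, 7 in DBA/2J, 2 in 129S1/SvImJ and 0 in NOD/ShiLtJ. In NOD/ShiLtJ state 1 held 25 of these bins, and in 129S1/SvImJ it held 24. The strains therefore ran from all state 2 to nearly all state 1, with the others between. State 3 was narrower in its spread, at 13.3% ± 2.79, with a block at the start of 1600 to 2400 bp. The longest block was in NZO/HlLtJ.

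The 250 bases before the G6pc start are shown because the edge of the state 3 block crosses them (RefSeq, GRCm38.p6, chr11:101367466-101367715, plus strand, 5′ to 3′), with capitals for the TATA box, searched as TATAAA on both strands.
G6pc: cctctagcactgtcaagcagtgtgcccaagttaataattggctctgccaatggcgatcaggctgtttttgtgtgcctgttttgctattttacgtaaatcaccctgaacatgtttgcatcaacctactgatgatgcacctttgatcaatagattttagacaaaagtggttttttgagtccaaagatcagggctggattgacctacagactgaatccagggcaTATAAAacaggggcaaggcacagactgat
The TATA box begins 29 bases before the start, and 11.7% of all windows hold one. Its bin was in state 3 in 9 of 9 strains. Further out, the letters TGTTTTG, a core of the elements through which FoxO factors and insulin are known to act on this promoter, begin 174 bases before the start and occur in 4.76% of windows. The bin that holds them was in state 3 in 4 strains (129S1/SvImJ, DBA/2J, NZO/HlLtJ and PWK/PhJ) and in state 1 in the other 5.

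Slc2a2, on chr3:28697903-28728361, encodes the low-affinity glucose transporter of the hepatocyte membrane. It had the highest mean share of state 1 of the 9 genes. The share ran from 48.0% in C57BL/6J through a median of 59.5% to 69.9% in NOD/ShiLtJ, and that of state 2 from 22.0% in NOD/ShiLtJ to 40.5% in PWK/PhJ. Exchanges of these states made up 66.9% of the differences between strain pairs. State 3 covered 4.82% ± 0.867. The start itself was in state 3 in 129S1/SvImJ, DBA/2J and WSB/EiJ and in state 1 in the other 6 strains, but a state 3 block of 1200 to 2000 bp lay within 1 kb of it in all 9. DBA/2J had the longest block and NZO/HlLtJ the shortest.

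Tat, on chr8:109986078-109999804, encodes tyrosine aminotransferase, which breaks down tyrosine for use in gluconeogenesis and is a textbook target of glucocorticoids in liver. Its state 3 block had the same first base in every strain and varied in its end. The block began at 109990201 in all 9 strains and was 2400 bp long in C57BL/6J and PWK/PhJ, 3000 bp in A/J, 2800 bp in DBA/2J and 2600 bp in the other 5. The listed start at 109990436 lay in it in every strain. State 1 covered 57.5% ± 3.8, and its lowest share was 50.0% in CAST/EiJ.

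The strains parted toward the end of Tat. Of the 35 bins nearer the end, state 3 held 16 in DBA/2J, 12 each in 129S1/SvImJ, NOD/ShiLtJ and WSB/EiJ, 7 each in CAST/EiJ and NZO/HlLtJ, 5 in PWK/PhJ, 3 in A/J and 0 in C57BL/6J. State 4 held 13 in CAST/EiJ, 8 each in A/J, C57BL/6J and NZO/HlLtJ, 7 in PWK/PhJ, 4 in WSB/EiJ and 0 in 129S1/SvImJ, DBA/2J and NOD/ShiLtJ. The 4 strains with the most state 3 there had the least state 4. State 9 appeared there in DBA/2J (2 bins) and NOD/ShiLtJ (5 bins) and in no other strain. Over the whole span, state 3 had a share from 13.3% in C57BL/6J to 33.3% in DBA/2J, a mean of 24.9% ± 7.39, and ranked at the percentile 99.3 of all genes.

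**Figure D3:**
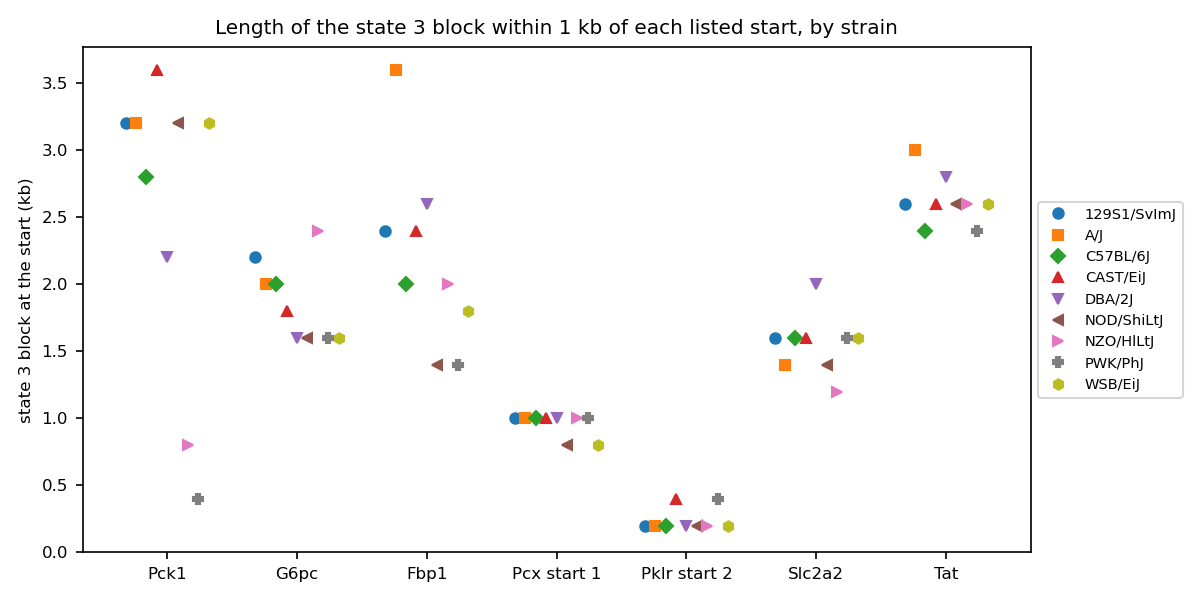
Length in kb of the state 3 block within 1 kb of a listed start (vertical axis), with 1 point per strain. The inner Pcx start and Ppargc1a had no such block and are not shown. The upstream Pklr start, which has the same block as the downstream one, is left out. The Pck1 block ran from 0.4 kb in PWK/PhJ to 3.6 kb in CAST/EiJ, while that of Tat stayed between 2.4 and 3.0 kb and that of the outer Pcx start between 0.8 and 1.0 kb.

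Pklr, on chr3:89136122-89146815, encodes the pyruvate kinase of liver and red cells, the last enzyme of glycolysis. The gene is known to use separate promoters in the red cell lineage and in liver, and the liver promoter is the downstream one. The upstream listed start, at 89136142, was in state 1 in 9 of 9 strains. The downstream start, at 89136623, was in state 3 in CAST/EiJ and PWK/PhJ and in state 1 in the other 7. A state 3 block lay just before it in all strains. The block began at 89136401 in every strain, and was 400 bp long in CAST/EiJ and PWK/PhJ and 200 bp, a single bin, in the other 7.

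The 250 bases before the downstream start are shown because the carbohydrate response element of Pklr lies in that bin (RefSeq, GRCm38.p6, chr3:89136373-89136622, plus strand, 5′ to 3′). This element binds the glucose-sensing factor ChREBP, encoded by Mlxipl, and is in capitals.
Pklr: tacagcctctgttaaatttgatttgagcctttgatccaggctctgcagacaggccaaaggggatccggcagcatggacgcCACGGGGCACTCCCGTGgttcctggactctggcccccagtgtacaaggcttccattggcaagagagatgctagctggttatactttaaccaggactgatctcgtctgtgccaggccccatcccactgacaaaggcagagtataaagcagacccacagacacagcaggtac
Searched on both strands as CACGGG and CCCGTG with 5 bases between, letters taken from this same sequence, the element begins 170 bases before the start and was found in no other of the 21045 windows. It lies at chr3:89136453-89136469. The bin around it, from 89136401 to 89136600, also holds a TATA box 31 bases and a CCAAT box 117 bases before the start. That bin was in state 3 in 9 of 9 strains. State 3 covered 1.78% ± 0.667 of the gene (adjusted p = 0.00456, exact permutation test, higher in 9 of 9 strains). The direction turned with 1000-bp bins (-0.358 points) and with the mean of all genes as reference (-0.795 points), and without segments of 1 bin the call was lost (adjusted p = 0.526, same test).

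The part of Pklr nearer the end was where state 14 came in. The share of the gene outside state 14 was 68.0% in A/J, 73.3% in PWK/PhJ, 81.3% in NOD/ShiLtJ, 82.7% in NZO/HlLtJ, 93.3% in 129S1/SvImJ, 96.0% in C57BL/6J and 100% in CAST/EiJ, DBA/2J and WSB/EiJ. The 28 bins nearer the end held most of this difference, with 22 in state 14 in A/J, 17 in PWK/PhJ, 14 in NOD/ShiLtJ, 9 in NZO/HlLtJ, 5 in 129S1/SvImJ, 3 in C57BL/6J and 0 in the other 3. The stretch outside state 14 around the start was 8.80 kb long in PWK/PhJ and 19 kb in CAST/EiJ. Exchanges of states 4 and 14 made up 20.2% of the differences between strain pairs, and those of states 1 and 2 made up 20%. The gene Hcn3 overlaps the upper end of Pklr, so states at that end cannot be assigned to Pklr alone.

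Gys2, on chr6:142422612-142473130, encodes the glycogen synthase of liver. Its upper and lower parts differed. Of the 127 bins in its upper part, 91.8% ± 8.89 were outside state 14, and of the 126 bins in its lower part, 5.38% ± 4.40. The lower part of the gene was in state 14 in 105 bins in 129S1/SvImJ and in up to 123 bins in other strains. In the upper part, state 14 held 38 bins in NOD/ShiLtJ, 6 to 12 in 6 strains and 0 in 129S1/SvImJ and CAST/EiJ. The stretch outside state 14 that reached over the upper end was accordingly 11.4 kb long in NOD/ShiLtJ, 27.2 kb at the median and 31.0 kb in 129S1/SvImJ. NOD/ShiLtJ was lowest and 129S1/SvImJ highest in the share of the whole gene outside state 14 (38.5% and 61.5%).

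State 4 had the largest share of Gys2 after state 14, at 23.0% ± 3.91, with 30.8% in 129S1/SvImJ and 15.8% in NOD/ShiLtJ. A state 3 block of 200 to 600 bp lay near the upper end of the gene. State 3 covered 0.773% ± 0.340 of the gene and was higher than the autosomes in 7 of 9 strains (adjusted p = 0.0175, exact permutation test). The direction turned with the mean of all genes as reference (-1.80 points) and with 1000-bp bins (-0.159 points), and without segments of 1 bin the adjusted p was 0.458. No start of Gys2 was used here.

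Ppargc1a, on chr5:51454249-52115853, encodes PGC-1α, a coactivator that is raised by fasting and acts on the promoters of Pck1 and G6pc. Its bins outside state 14 made up 13.7% in PWK/PhJ, 16.1% at the median and 19.5% in WSB/EiJ, and none of the other glucose genes came as low. The listed start, at 51567725 on the minus strand, was in state 14 in 5 strains and in state 6 in A/J, CAST/EiJ, NZO/HlLtJ and WSB/EiJ. No strain had state 3 within 1 kb of it. This was the only start listed for the gene, so state 3 at any other start could not be read.

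Bins outside state 14 were denser downstream of that start than beyond it. From the lower end of the gene to the listed start, 41.9% ± 3.95 of 578 bins were outside state 14, and beyond the start, to the upper end, 11% ± 2.01 of 2751 bins. By number, more of them lay beyond the start (246 to 398 bins) than downstream of it (214 to 286) in 8 of 9 strains, and fewer in PWK/PhJ (218 and 238). A state 3 block of 800 to 1200 bp lay inside the gene in all 9 strains. It began at 51552201 in 8 strains and at 51552001 in NZO/HlLtJ, and its nearest edge was 14525 bp downstream of the listed start in 6 strains and 14725 bp in NOD/ShiLtJ, PWK/PhJ and WSB/EiJ. The stretch outside state 14 around this block was 14.8 to 15.2 kb long in A/J, C57BL/6J and NOD/ShiLtJ and 33.8 to 40.0 kb in the other 6, with no strain between.

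State 13 occurred in no other glucose gene. It covered 3.03% ± 0.911 of Ppargc1a, from 1.56% in DBA/2J to 4.66% in WSB/EiJ, all of it beyond the listed start, where it held 52 to 155 bins. The 10 bins above the upper end of the gene, from 52116001 to 52118000, were outside state 14 in every strain. State 12 held 3 to 5 of them and state 13 held 3 to 6, state 11 held 1 to 3 in 4 strains, and 1 bin in NZO/HlLtJ was in state 8. States 1, 2 and 3 held none. The upper end of the gene thus carried other states than the block within it.

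In all, 10 starts were listed for the genes other than Gys2. State 3 lay within 1 kb in all 9 strains for 8 of these starts, the exceptions being the inner Pcx start and Ppargc1a. The upstream and the downstream Pklr start share the same block, so that block is counted for each of them. How many of all listed starts have state 3 within 1 kb in every strain was not counted. At the start bin itself, state 3 was found in 9 of 9 strains for Pck1, G6pc, Tat and the outer Pcx start. The first base of the block was the same in all strains for Pcx, Pklr and Tat. In Pck1 and Fbp1 the strains differed mainly in how far the block ran into the gene, while in Slc2a2 the outer and the inner edge each varied by 400 bp.

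The glucose genes varied to unlike degrees. The percentage of a gene's bins in different states in 2 strains, averaged over the 36 pairs of strains, was highest in Pklr (47.9%, percentile 97.7 of all genes) and Pck1 (36.1%, percentile 87.6). G6pc followed at 26.8%, Pcx at 22.4% and Tat at 21.0%, and Slc2a2 at 18.9%, Fbp1 at 17.4% and Gys2 at 16.1% were lower. Ppargc1a was lowest at 9.40%, and 2496 of its bins were in state 14 in all 9 strains. The median of the 9 genes over all their bins was 21.0%, close to the 20.1% of all genes. Over bins outside state 14 in at least 1 strain, the medians were 25.6% and 34.9%, and the order changed. There Ppargc1a rose from the lowest to 37.5% (percentile 63.9), next to Pklr at percentile 94.1, and Pck1, at the same 36.1%, stood at percentile 56.5. Fbp1, Slc2a2 and Tat had low percentiles on this measure (3.37, 4.16 and 5.64). With 1 segmentation per strain no difference between 2 strains could be tested.

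Agreement between all strains was lowest in Pck1 and Pklr. All 9 strains had the same state in 8 of 52 bins of Pck1 and 13 of 75 bins of Pklr, against 98 of 173 in Slc2a2, 53 of 90 in Tat and 76 of 139 in Fbp1. In Pck1 9 bins had 3 or more states, and in Pklr 38 had. CAST/EiJ differed most from the other strains in Pck1, where 51.7% of its bins differed on average and 9 bins had a state that no other strain had while the other 8 shared another. CAST/EiJ was also the most different strain in Fbp1 and Tat, PWK/PhJ in G6pc, and 129S1/SvImJ in Gys2. NOD/ShiLtJ was the most different strain in Pcx, Pklr, Slc2a2 and Ppargc1a.

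Some strains were at the end of the range for several genes. NOD/ShiLtJ had the highest state 1 share in 5 of the 9 genes (Fbp1, G6pc, Pcx, Pklr and Slc2a2), the lowest state 2 share in 7 and the lowest state 4 share in 6, counting ties. In state 2 it was tied with 129S1/SvImJ in G6pc, and at 0% with DBA/2J, NZO/HlLtJ and WSB/EiJ in Tat. In state 4 all strains but NZO/HlLtJ were tied at 0% in G6pc. Over all autosomal bins NOD/ShiLtJ had 2.63% in state 1, in a range over strains up to 2.82%, and 1.98% in state 2, near the low end of 1.93%. In state 4 it had 1.89%, the lowest of the 9 strains, with the next at 2.30%. CAST/EiJ had the lowest state 1 share in 4 genes and the highest state 3 share in 4, with 0.454% of its autosomal bins in state 3. In Pklr it was tied with NZO/HlLtJ in state 1 and with DBA/2J and PWK/PhJ in state 3. PWK/PhJ had the lowest state 3 share in 5 genes (Fbp1, G6pc, Pck1, Pcx and Ppargc1a), with 0.367% over the autosomes. Of these, G6pc was a tie with DBA/2J, NOD/ShiLtJ and WSB/EiJ, and Ppargc1a a tie with NOD/ShiLtJ. The part of the strain-wide levels in these orders was not tested.

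The share of state 1 in Pck1 ranged over 50.0 points between strains, the widest of the 9 genes. Among 827 genes of other regions whose range passed a minimum set from that of Pck1, those that followed it most closely over the 9 strains were Prob1 on chromosome 18 (Pearson r = 0.862), Tspyl4 on chromosome 10 (r = 0.858) and Rps10 on chromosome 17 (r = 0.806). These are the highest of many values over 9 strains that share ancestry, and they are given as a description.

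Of the genes that share their pathways, 95 in 6 lists could be measured on the autosomes. Of 15 other gluconeogenesis genes, 13 were called higher in state 1 than the autosomes and 0 lower, with a median share of 33.6%, beside 47.1% of all genes called higher and 44.5% lower. The highest were Gpt, the alanine aminotransferase that feeds pyruvate into the pathway (70.4%), and Slc37a4, the transporter that brings glucose-6-phosphate to G6pc (68.2%). Fbp2 (3.65%) and Ldhb (3.47%) were lowest and were not called.

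The other lists were more mixed for glycolysis, glycogen and transport than for pyruvate. Of 23 other glycolysis genes, 16 were called higher and 5 lower (median 13.1%), with Tpi1, triosephosphate isomerase (63.2%), at the top and Pgam2 and Pkm at 0%. Of 16 other glycogen genes, 12 were higher and 3 lower (median 15.7%). The protein phosphatase subunits Ppp1r3c (61.6%) and Ppp1r3b (52.9%), which direct dephosphorylation to glycogen, led this list, and the brain and muscle phosphorylases Pygb (0.271%) and Pygm (0%) were lowest. Of 6 other glucose transporters, 5 were higher and 1 lower, with Slc2a1 (36.8%) and Slc2a5 (21.9%) above Slc2a9 (6.85%) and Slc2a3 (0%). All 8 pyruvate genes were higher (median 27.8%), led by the mitochondrial pyruvate carrier genes Mpc1 (52.6%) and Mpc2 (47.2%), with Pdk1 (8.88%) and Dlat (7.84%) lowest.

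Of 27 regulators of these pathways, 26 were higher in state 1 and 1 lower, with a median of 34.0%. Nr0b2, a repressor that bile acids induce (64.9%), and Foxa2, a pioneer factor of liver genes (64.8%), were highest. Sirt1 (5.51%) and Creb1 (1.84%), the factor that binds cAMP response elements, were lowest, and Creb1 was the regulator called lower. In state 3, 27 of the 27 regulators were higher than the autosomes, beside 47.5% of all genes.

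The glucose genes were set beside their counterparts in other tissues or compartments. Pck2, the mitochondrial form of Pck1, had 14.9% of its bins outside state 14 and 4.76% in state 1. G6pc2, the islet form, had 28.6% and 10.8%, and G6pc3, the widely expressed form, 75.5% and 21.2%. Fbp2 had 20.7% and 3.65%. The stretch outside state 14 from Fbp1 reached into Fbp2 in all 9 strains, so these shares cannot be assigned to Fbp2 alone. Slc2a4, the insulin-dependent transporter of muscle and fat, had 22.0% and 11.5%, and Slc2a1 of most tissues 87.4% and 36.8%. Gys1, the muscle glycogen synthase, had 52.5% and 16.2%, beside Gys2 with 49.4% and 12.1%. Pkm, the pyruvate kinase of most other tissues, was outside state 14 in 100% of its bins, like Pck1 and G6pc, but in other states: 81.1% in state 13, 10.2% in state 10 and 5.84% in state 12, with 0% in states 1 and 3. A difference between each pair was not tested.

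**Figure D4:**
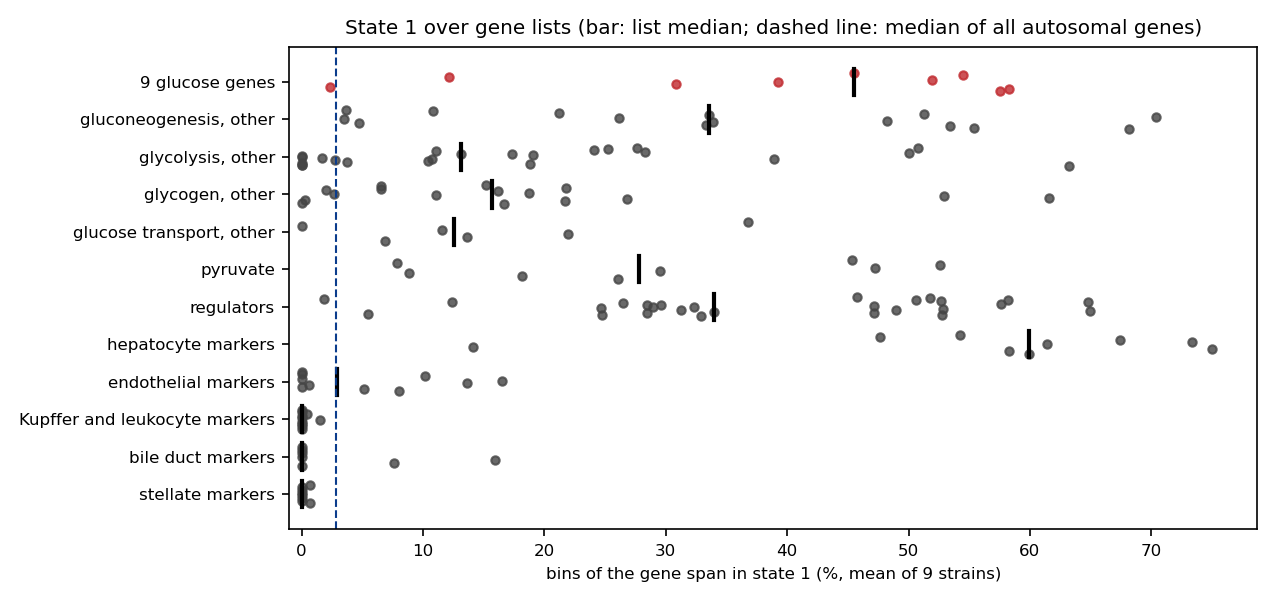
Mean share of each gene's bins in state 1 over the 9 strains (horizontal axis, percent) for the 9 glucose genes and the other lists (rows), with a bar at each list's median and a dashed line at the median of all genes (2.87%). The median of the glucose genes (45.5%) lies between those of the other gluconeogenesis genes (33.6%) and the hepatocyte markers (59.9%).

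The labelled cell type was checked on marker genes. All 9 hepatocyte markers measured were higher in state 1 than the autosomes, with a median of 59.9%. Of 10 endothelial markers 5 were higher and 5 lower, with a median of 2.88%. This is near all genes, with 47.1% called higher, 44.5% lower and a median of 2.87%. None of 10 Kupffer cell and leukocyte markers and none of 8 stellate cell markers was higher, and 1 of 7 bile duct markers was. The medians of the last 3 lists in state 1 were 0%. In state 13 their medians were 22.4% (Kupffer cell and leukocyte), 17.6% (stellate) and 19.5% (bile duct), beside 0% over all genes.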

How the data were processed

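ChIP-seq libraries of 4 marks from 3 mice and 1 input per strain (117 libraries, 13 per strain) were joined by the authors into 1 segmentation per strain. In the deposited files the value of an interval is a category, the number of 1 of 14 states, and not a count, signal or score. Per the submitters' processing notes, FastQC 0.11.5, MACS 1.4.2 and genome build mm10 were used. The aligner, the segmentation tool and the reads per segmentation are not given in the sources used here, so the depth is unknown and no counting interval is given. It is not stated whether the states were learned on all strains together.

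Intervals were written as 200-bp bins. Gene spans came from a RefSeq table of GRCm38.p6, the same coordinates as mm10, with 2 kb added on each side. Starts and the sequence before them came from RefSeq promoter windows of that build, which held 8 of the 9 genes. For each of 20665 autosomal protein-coding genes, the share of bins outside state 14 and in states 1, 3 and 13 was set against the same strain's autosomal share. An exact sign-flip permutation test, two-sided, with 9 strains as units (512 sign patterns), was adjusted by the Benjamini-Hochberg method, and an adjusted p below 0.05 was a call. Strains were the replicates, and mice within a strain could not be separated.

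The glucose genes, the pathway and marker lists (99 pathway genes, of which 4 are not on the autosomes) and the tests were chosen with earlier results of these data known. All 9 genes, their counterparts, and the 2 genes highest and 2 lowest in state 1 per list are named, except for results not reported here, with the 3 genes that followed Pck1 most closely. The parts within each gene, the stretches outside state 14, the counts of extreme strains and the motifs were chosen after the states had been seen. Alternatives covered the added flank, the reference, the X chromosome, the genes tested, the bin size, short segments, the window at starts and each strain left out. The code was tested on simulated data. Software was Python 3.11.15 with scipy 1.17.1, numpy 2.4.6, matplotlib 3.10.9 and pandas 2.3.3.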

Additional observations from a re-analysis of the deposited data

Results flagged for a closer look

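In 49 sets of 9 strains (1 gene and 1 measure each), 5 had a strain far from the other 8. The measures were shares of bins and the mean difference of a strain from the others. The rule flags about 1 in 20 sets, or 2.45, for independent and normally distributed values. These sets share bins and hold ties at 0%, so the 5 sets cannot be read as more than that number. In Pck1, DBA/2J had 11.5% of its bins in state 4, and the next strain had 5.77%. In G6pc, NZO/HlLtJ stood apart in state 3, at 19.4% with the next strain at 15.3%. It also did in state 4, at 2.78% (2 of 72 bins) with the other 8 at 0%. In Pcx, NOD/ShiLtJ had 97.7% of its bins outside state 14, and the next strain had 99.5%. In Ppargc1a, 129S1/SvImJ had 5.38% of its bins in state 2, and the next strain had 4.21%.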

How the results depend on the processing

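With 1 segmentation per strain and unknown depth, the values show neither the spread between mice nor whether a missing state reflects few reads. No paired analysis was possible because the libraries of a strain, with their mouse numbers, are combined in 1 segmentation. Against the mean of all genes in place of the autosomal bins, 7264 genes were higher and 9969 lower outside state 14, 5397 were higher in state 1 and 4871 in state 3, where 5 of the 9 glucose genes were higher. The differences in state 3 then turned to -0.859 points in Pcx (adjusted p = 0.00476, exact permutation test), -0.795 in Pklr (0.0222) and -1.80 in Gys2 (0.00476). For Ppargc1a the difference outside state 14 was then -25.8 points and that in state 1 was -6.76 points. With all 47042 annotated autosomal genes tested, 14266 were higher in state 1 and 12390 in state 3. With 1000-bp bins, 6485 genes were higher in state 3, and the differences turned to -0.358 points in Pklr (adjusted p = 0.00532, same test) and -0.159 in Gys2 (0.507). With the X chromosome included, the state 1 difference of Ppargc1a turned to 0.0174 points (adjusted p = 0.900, same test). The median difference between strains over the 9 genes was 21.0%. Over bins outside state 14 in at least 1 strain it was 25.6%, beside 34.9% for all genes. Where a match within 1 bin counted, it was 15.2%. Apart from the changed reference and units just named, the cause was not tested. Leaving out each strain in turn gave 11454 to 11900 genes higher and 5094 to 5330 lower outside state 14, 9539 to 9628 higher in state 1, 9649 to 9717 higher in state 3, and 3291 to 3539 higher and 14469 to 14823 lower in state 13. It gave a median difference between strains of 19.7% to 22.2%, and left the counts of called glucose genes as they were.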

Other observations

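Several genes outside the naming rule were picked after their values were seen. The liver transcription factor genes Cebpa and Cebpb were divided between states 1 and 3 alone: Cebpa had 45.8% of its bins in state 1 and 54.2% in state 3, and Cebpb had 51.7% and 48.3%. Pdk4, a kinase that blocks the entry of pyruvate into the citrate cycle, had 26.1% ± 8.18 in state 1 (SD, n = 9 strains). Trib3 had the widest spread among the regulators in that state, at 32.9% ± 13.5.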
